A study of Mus musculus with 8 samples.

Results

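Cyp26b1 and 8 further genes of retinoic acid signalling, namely Rdh10, Aldh1a1, Aldh1a2, Rara, Rarb, Rarg, Rxra and Rxrb, were followed through 8 RNA sequencing libraries of mouse pancreas. The genes were chosen by name for their roles in retinoic acid signalling, and with their levels and genotype differences in these libraries known, above all the high values of Cyp26b1 in Daxx-deleted pancreas. Of the 9 genes 8 have a row among the 11789 genes of the deposited table. Rarb has none and its level was not analysed here. The libraries were made from 4 mice of genotype Daxxfl/flPdx1-CreTg (DC), called Daxx-deleted here, with floxed alleles of the histone chaperone gene Daxx and a Cre transgene under the Pdx1 promoter, and from 4 wild-type (WT) mice, and all 8 mice were 6 weeks old. Pdx1-Cre acts in the progenitors of acinar, duct and islet cells, so stromal, vascular, immune and fat cells keep an intact Daxx. The labels name no group with the transgene or the floxed alleles alone, so their effects and that of Daxx loss cannot be told apart. The design text gives 2 females and 2 males per genotype without saying which library is which.

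Retinoic acid is made from vitamin A inside the tissue that uses it. Retinol is oxidised to retinal by retinol dehydrogenases such as Rdh10, a step that reductases such as Dhrs3 reverse, and retinal is oxidised to retinoic acid by Aldh1a1, Aldh1a2 and Aldh1a3. The acid binds heterodimers of a retinoic acid receptor (Rara, Rarb, Rarg) and a retinoid X receptor (Rxra, Rxrb, Rxrg), which sit on paired half-sites in DNA and exchange corepressors for coactivators. Cytochromes of the Cyp26 family, Cyp26b1 among them, oxidise retinoic acid and end the signal, and several genes of synthesis, storage and breakdown are themselves targets of the receptors. In the embryonic pancreas retinoic acid made by the surrounding mesoderm by Aldh1a2 is needed for the dorsal bud, and in the adult organ stellate cells store vitamin A.

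Regulatory sequence is shown for Cyp26b1, the listed member with the largest log2 fold change between genotypes, and for Rarb, whose promoter holds a well-known receptor element. The first is the stretch upstream of Cyp26b1 (chr6:84593909-84594060, minus strand), whose TATAAA box, in capitals, begins 41 bases before the GENCODE start of the gene and at position -139 from the RefSeq start that sets the windows used here. The second is the element of the Rarb promoter (chr14:16575506-16575535, minus strand), shown as the form of response element that the receptors are known to bind, with its half-sites in capitals. Both are from RefSeq windows of build GRCm38.p6 and are written 5′ to 3′.
Cyp26b1: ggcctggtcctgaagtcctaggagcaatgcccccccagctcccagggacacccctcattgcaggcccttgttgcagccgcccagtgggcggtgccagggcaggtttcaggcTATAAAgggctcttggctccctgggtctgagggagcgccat
Rarb: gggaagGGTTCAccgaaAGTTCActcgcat

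In the Rarb element the half-sites lie on the strand of the gene, in the same direction and 5 bases apart, an arrangement called DR5. RefSeq windows from 250 bases before to 50 after the start were searched on both strands for the half-site AGGTCA, for its common variants AGTTCA, printed above for Rarb, GGGTCA, known from other elements, and GGTTCA, also printed above, and for their direct repeats spaced by 1, 2 or 5 bases. Windows were found for 8 of the 9 genes, 15 windows in all. The known DR5 of Rarb, from which 2 of the half-sites were taken, was the only one in these 15, and 0.0974% of all 32851 windows held a DR5. Neither a DR1 nor a DR2 was found in the 15, where 0.222% and 0.268% of all windows held one. The Cyp26b1 window held none of the 4 half-sites, which 43.7% of all windows hold, but it was the 1 window of the 15 with TATAAA, present in 13.6% of all windows. A match in these letters is not a site of binding, and elements outside the windows were not searched.

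Values are the deposited normalized read counts, that is, reads per gene divided by a size factor per library. Libraries held 7705789 to 10517508 reads over the listed genes. Daxx, the targeted gene, had 26.8, 23.3, 29.2 and 32.5 normalized counts in Daxx-deleted replicates 1 to 4, against 39.7, 58.7, 46.7 and 45.2 in wild-type replicates 1 to 4. The groups did not overlap, and the log2 fold change of Daxx was -0.74 ± 0.20 (SE). limma was fitted to the 10468 genes that averaged at least 10 normalized counts, and no gene passed an adjusted p under 0.05 in either direction (0% higher and 0% lower in Daxx-deleted pancreas). None of the 8 listed retinoid genes was called, like all other genes. Before adjustment 302 genes had a limma p under 0.05. The count for edgeR was 0 genes called and 299 before adjustment, and that for DESeq2 was 1 and 219. All 4 Daxx-deleted libraries lay above all 4 wild-type libraries for 0.831% of tested genes and below them for 1.04%. Within genotypes the libraries were not evenly alike by a chi-square summed over genes, to which genes with many reads can add most. The chi-square of read counts per degree of freedom was 6.97 between Daxx-deleted replicates 3 and 4 and 11.3 between replicates 1 and 2, but 20.2 to 24.4 across these pairs. Wild-type replicate 2 differed from the other wild-type libraries by 21.2 to 26.0, and those from each other by 8.10 to 12.03. The design text speaks of 4 mice per genotype, so each library was taken as 1 animal, though no label ties one to the other. Because the genes were chosen with their values known, their own differences are given as descriptions with intervals, beside the calls of the fit over all genes.

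Cyp26b1, an enzyme that clears retinoic acid, was the listed member with the largest log2 fold change between genotypes. Its highest values were in Daxx-deleted replicates 3 and 4, the pair that also had the lowest chi-square between Daxx-deleted libraries. The gene (ENSMUSG00000063415.12, chromosome 6, 84571414 to 84593908, minus strand, GRCm38) had 8.26, 5.83, 47.9 and 47.2 normalized counts in Daxx-deleted replicates 1 to 4, against 3.52, 0, 5.84 and 0.885 in wild-type replicates 1 to 4. Daxx-deleted replicates 3 and 4 stood far above the other 6 libraries, and Daxx-deleted replicate 2 was just under wild-type replicate 3, so the groups overlapped. Means were 27.3 ± 23.4 in Daxx-deleted and 2.56 ± 2.65 in wild-type pancreas (SD, n = 4 each).

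The reads behind these values were few. Cyp26b1 had 8, 7, 46 and 45 reads in Daxx-deleted libraries and 4, 0, 6 and 1 in wild-type libraries. Exact 95% Poisson intervals, which cover counting error only, were 35.1 to 63.9 and 34.5 to 63.2 normalized counts for Daxx-deleted replicates 3 and 4. For Daxx-deleted replicates 1 and 2 they were 3.57 to 16.3 and 2.34 to 12.01. The highest upper bound in wild-type libraries was 12.7, in replicate 3, and the exact interval for the 0 reads of wild-type replicate 2 reached 4.81. The intervals of Daxx-deleted replicates 1 and 2 overlapped with wild-type ones. Those of Daxx-deleted replicates 3 and 4 did not, which describes the values for which the gene was chosen.

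On the log2(normalized count + 1) scale the difference of Cyp26b1 was 2.83 ± 0.75 (SE), with a 95% interval of 1.23 to 4.43. It was 1.48 with a pseudocount of 8, which weighs low counts less. It ranged from 2.34 to 3.34 when each library in turn was left out. The gene passed the filter on low values only through the Daxx-deleted group, since its wild-type mean was under 10.

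**Figure D1:**
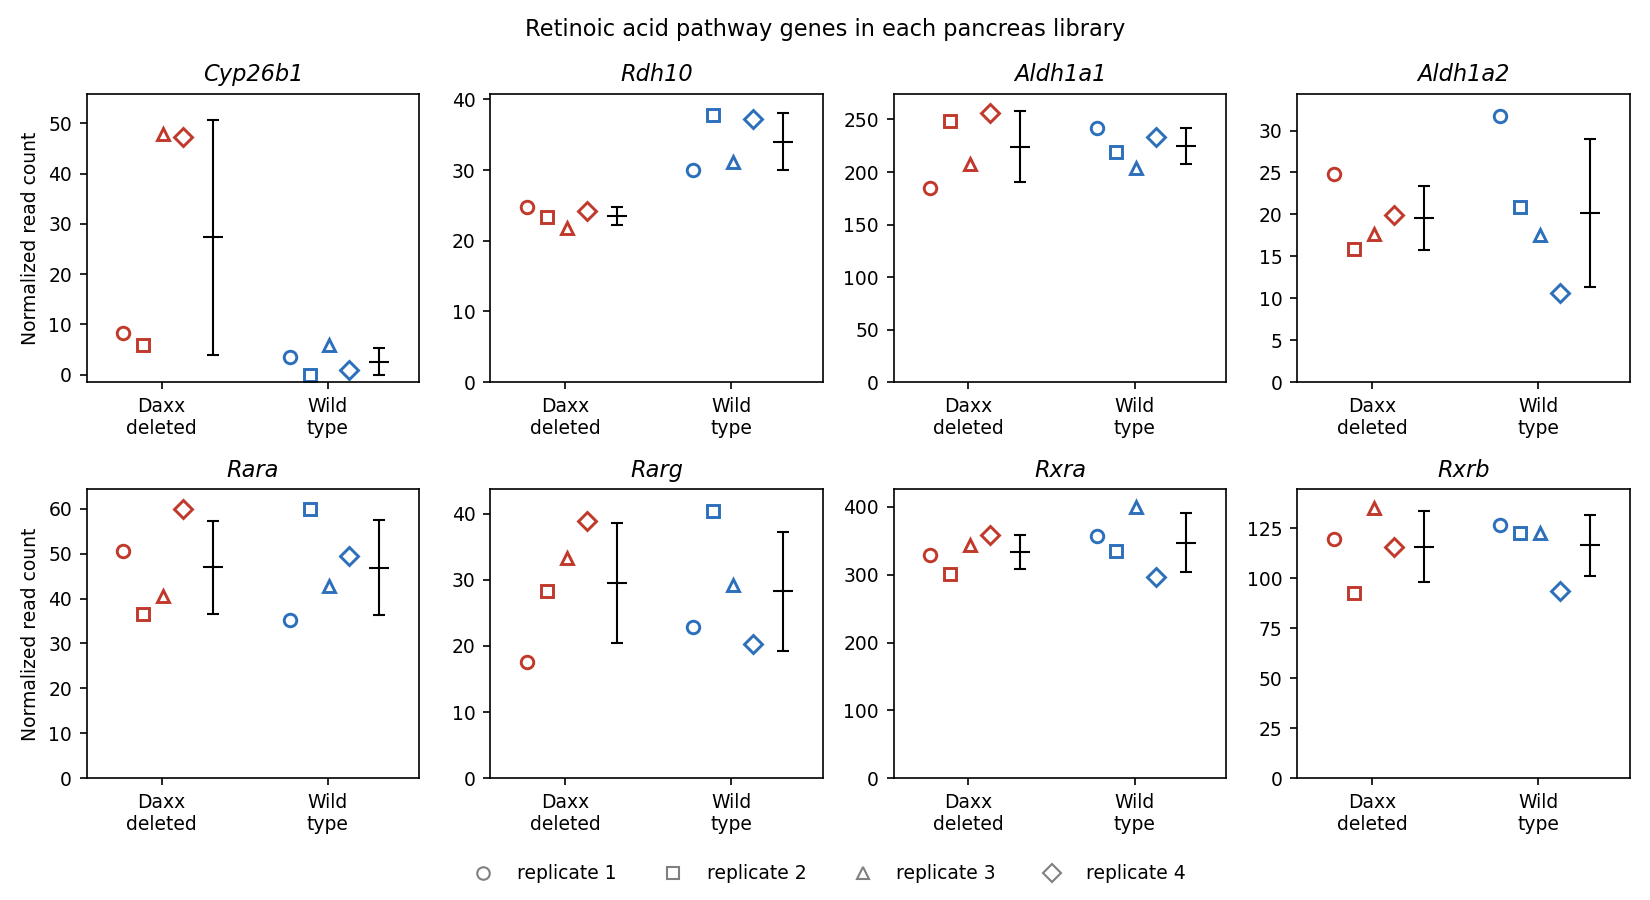
Normalized read counts of the 8 listed genes in each library, Daxx-deleted left of wild type in each panel, with 1 symbol per replicate number and the mean ± SD of 4 libraries in black. Cyp26b1 stands at 47.9 and 47.2 in Daxx-deleted replicates 3 and 4 and at 8.26 or less in the other 6 libraries, Rdh10 does not overlap between genotypes, and the other 6 genes overlap.

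The Daxx-deleted libraries high in Cyp26b1 were also the Daxx-deleted libraries with a high level of Y-linked genes. The summed normalized count of the Y-linked genes Ddx3y, Eif2s3y, Kdm5d and Uty was 0, 1.67, 173.9 and 289.8 in Daxx-deleted replicates 1 to 4, against 0, 0, 288.2 and 324.9 in wild-type replicates 1 to 4. Each genotype thus had 2 libraries with a sum of 173.9 or more and 2 with a sum of 1.67 or less. The wild-type libraries with the high sums had 5.84 and 0.885 normalized counts of Cyp26b1. The log2 difference of Cyp26b1 between genotypes was 2.86 when the Y-linked level was added to the fit. A fit in which the genotype difference may change with the Y-linked level was added after these values were seen. Its product term for Cyp26b1 was 0.34 ± 0.21 (SE) per log2 unit of the mean Y-linked level, given as a description since the term was prompted by these values. The fitted log2 fold change was 1.82 at the lowest and 3.95 at the highest Y-linked level. This term passed an adjusted p under 0.05 in 0% of genes, and 875 genes had an unadjusted p under 0.05. Cyp26b1 was not among those 875 and ranked 2001 of 10468 genes by the p of this term. Neither edgeR nor DESeq2 was run with it.

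**Figure D2:**
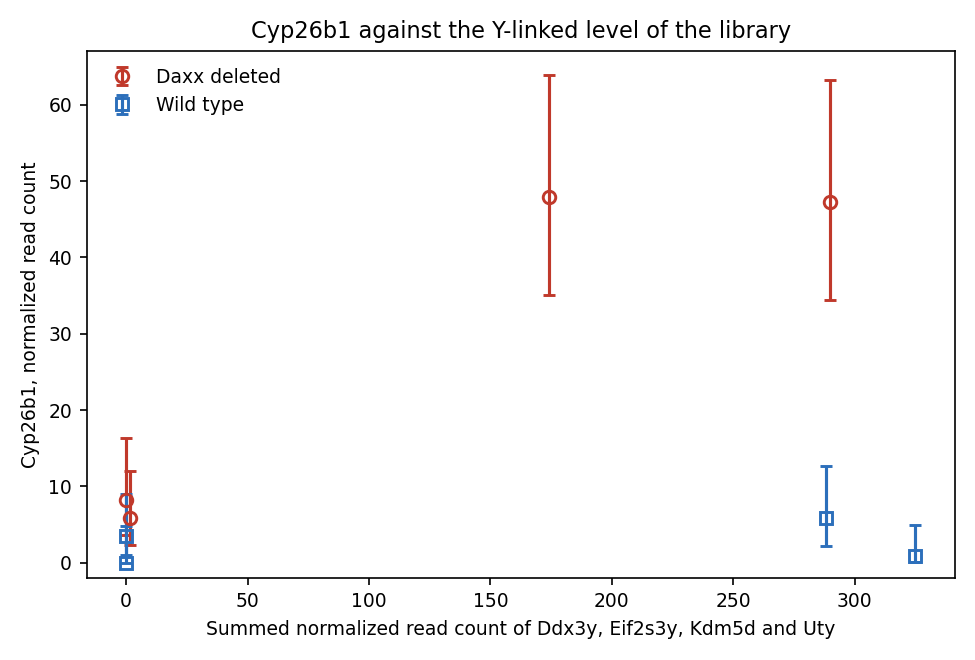
Cyp26b1 (vertical axis, normalized read count, with exact 95% Poisson intervals) against the summed normalized read count of 4 Y-linked genes (horizontal axis) in the 4 Daxx-deleted libraries (circles) and the 4 wild-type libraries (squares). The 2 Daxx-deleted libraries with Y-linked sums of 173.9 and 289.8 stand above 40 in Cyp26b1, while the 2 wild-type libraries with sums of 288.2 and 324.9 stand at 5.84 and 0.885.

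The cell make-up of these libraries was set beside this pattern by marker lists. In bulk tissue, fewer cells of a type and less RNA per cell cannot be told apart. Islet markers (8 of 8 listed) summed to 1681, 1844, 7439 and 4005 normalized counts in Daxx-deleted replicates 1 to 4, against 7743, 2139, 4290 and 3244 in wild-type replicates 1 to 4. Wild-type replicate 1 had the highest islet sum and 3.52 normalized counts of Cyp26b1. Stellate and pericyte markers (7 of 8 listed) summed to 320.0 to 454.1 in Daxx-deleted and 324.9 to 418.7 in wild-type libraries, with the highest sum in Daxx-deleted replicate 3. Fibroblast markers (8 of 8) summed to 3443 to 5553 in Daxx-deleted and 3160 to 4928 in wild-type libraries. Mesothelium markers (8 of 8) summed to 1684 to 2065 in Daxx-deleted and 1626 to 2115 in wild-type libraries. Most of the mesothelium sum came from Krt8 and Krt18, with means of 750.1 and 963.4 over all 8 libraries. Upk3b, the next highest, had 43.2. The sum thus mainly follows Krt8 and Krt18 and says little about the other mesothelium markers. Acinar markers (6 of 6) summed to 1540142, 1473577, 1777112 and 2099993 in Daxx-deleted replicates 1 to 4, against 1842051 to 2030037 in wild-type libraries. Liver markers (3 of 7) summed to 236.4, 311.6, 353.1 and 374.8 in Daxx-deleted replicates 1 to 4, against 302.8 to 408.1 in wild-type libraries. Ttr made up most of the liver sum, at 211.6, 285.7, 319.7 and 325.5 in Daxx-deleted replicates 1 to 4. The islet, acinar, liver and nerve sums were each higher in Daxx-deleted replicates 3 and 4 than in replicates 1 and 2, as was Cyp26b1. The adipocyte sum was lower in replicates 3 and 4. For islet, acinar and liver markers the ranges overlapped between genotypes. Ranges also overlapped between genotypes for endothelium, macrophages, adipocytes, lymphocytes, ducts and nerve. No tested marker of these 12 lists was called, like all other genes of the fit, and the nerve list had no tested marker. In the lymphocyte list 2 of 9 markers have a row and in the nerve list 2 of 5, which leaves those cells poorly covered. The part of cell make-up in the Cyp26b1 values was not tested beyond these sums.

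Rdh10, the dehydrogenase that starts retinoic acid synthesis from retinol, was the 1 member whose groups did not overlap. It (ENSMUSG00000025921.7, chromosome 1, 16105774 to 16133734) had 24.8, 23.3, 21.9 and 24.1 normalized counts in Daxx-deleted libraries, against 30.0, 37.8, 31.2 and 37.2 in wild-type libraries. All 4 Daxx-deleted values lay below all 4 wild-type values, as did those of the 1.04% of tested genes given above. Means were 23.5 ± 1.26 in Daxx-deleted and 34.0 ± 4.05 in wild-type pancreas (SD, n = 4 each), a log2 fold change of -0.51 ± 0.21 (SE) with a 95% interval of -0.95 to -0.06. These values rest on 21 to 28 reads per Daxx-deleted library and 29 to 42 per wild-type library. Unlike Cyp26b1, Rdh10 did not set Daxx-deleted replicates 3 and 4 apart from replicates 1 and 2. The estimate stayed between -0.57 and -0.46 when each library in turn was left out.

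The enzymes that make retinoic acid from retinal had close means in the 2 genotypes. Aldh1a1 (ENSMUSG00000053279.7, chromosome 19, 20492715 to 20643465) had 184.8, 248.2, 207.2 and 256.2 normalized counts in Daxx-deleted libraries, against 242.3, 219.1, 203.5 and 233.7 in wild-type libraries. Its log2 fold change was -0.01 with a 95% interval of -0.30 to 0.27. Aldh1a2 (ENSMUSG00000013584.5, chromosome 9, 71215789 to 71296243), the enzyme of the embryonic pancreatic mesoderm, had 24.8, 15.8, 17.7 and 19.9 in Daxx-deleted libraries, against 31.7, 20.9, 17.5 and 10.6 in wild-type libraries. Wild-type replicates 1 and 4 held both its highest and its lowest value. Its means were 19.6 ± 3.86 in Daxx-deleted and 20.2 ± 8.80 in wild-type pancreas (SD, n = 4 each), while the log2 fold change, which follows geometric means, was 0.04 with an interval of -0.65 to 0.72.

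The receptors also overlapped between genotypes. Rara (ENSMUSG00000037992.16, chromosome 11, 98927818 to 98974942) had 50.6, 36.7, 40.6 and 59.8 normalized counts in Daxx-deleted libraries, against 35.2, 60.0, 42.8 and 49.6 in wild-type libraries. Its group means were 46.9 ± 10.4 in Daxx-deleted and 46.9 ± 10.5 in wild-type pancreas (SD, n = 4 each), with a 95% interval of the log2 fold change of -0.46 to 0.46. Rarg (ENSMUSG00000001288.15, chromosome 15, 102234938 to 102257517) had 17.5, 28.3, 33.3 and 38.8 in Daxx-deleted libraries, against 22.9, 40.4, 29.2 and 20.4 in wild-type libraries. Rarg was higher in Daxx-deleted replicates 3 and 4 than in replicates 1 and 2, but wild-type replicate 2 was higher still. Its interval was -0.55 to 0.66.

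The retinoid X receptors, which also pair with thyroid hormone, vitamin D, liver X and peroxisome proliferator receptors, were measured with more reads than Rara and Rarg. Rxra (ENSMUSG00000015846.14, chromosome 2, 27676440 to 27762957) had 329.3, 301.6, 343.7 and 359.1 normalized counts in Daxx-deleted libraries, against 356.9, 335.2, 400.2 and 296.6 in wild-type libraries. Both the highest and the lowest value were wild type, and the log2 fold change was -0.05 with an interval of -0.31 to 0.20. Rxrb (ENSMUSG00000039656.16, chromosome 17, 34031812 to 34038399) had 119.7, 92.5, 135.4 and 115.5 in Daxx-deleted libraries, against 126.9, 122.6, 122.7 and 93.8 in wild-type libraries. Daxx-deleted replicate 2 and wild-type replicate 4 were the low libraries in Rxrb. Its interval was -0.35 to 0.32. Rxrb lies close to the targeted gene Daxx, which spans 33909414 to 33915590 on the same chromosome.

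Levels of the 8 genes were ordered by normalized count per kilobase of annotated exon, averaged over all 8 libraries. Rxra was highest at 62.3 ± 6.11 (SD, n = 8), followed by Aldh1a1 at 45.5 ± 5.03 and Rxrb at 29.2 ± 3.85, and the ranges of these 3 genes did not overlap with each other or with the next. Rara at 10.7 ± 2.22, Aldh1a2 at 8.78 ± 2.78, Rdh10 at 6.92 ± 1.51 and Rarg at 6.78 ± 1.96 normalized counts per kilobase overlapped from each neighbour to the next. Cyp26b1 was lowest at 2.79 ± 3.80, but its highest library, at 8.95, lay within the ranges of Rara, Aldh1a2, Rdh10 and Rarg. Exon length is the merged length over all annotated transcripts, so genes with long rarely used exons are placed too low.

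**Figure D3:**
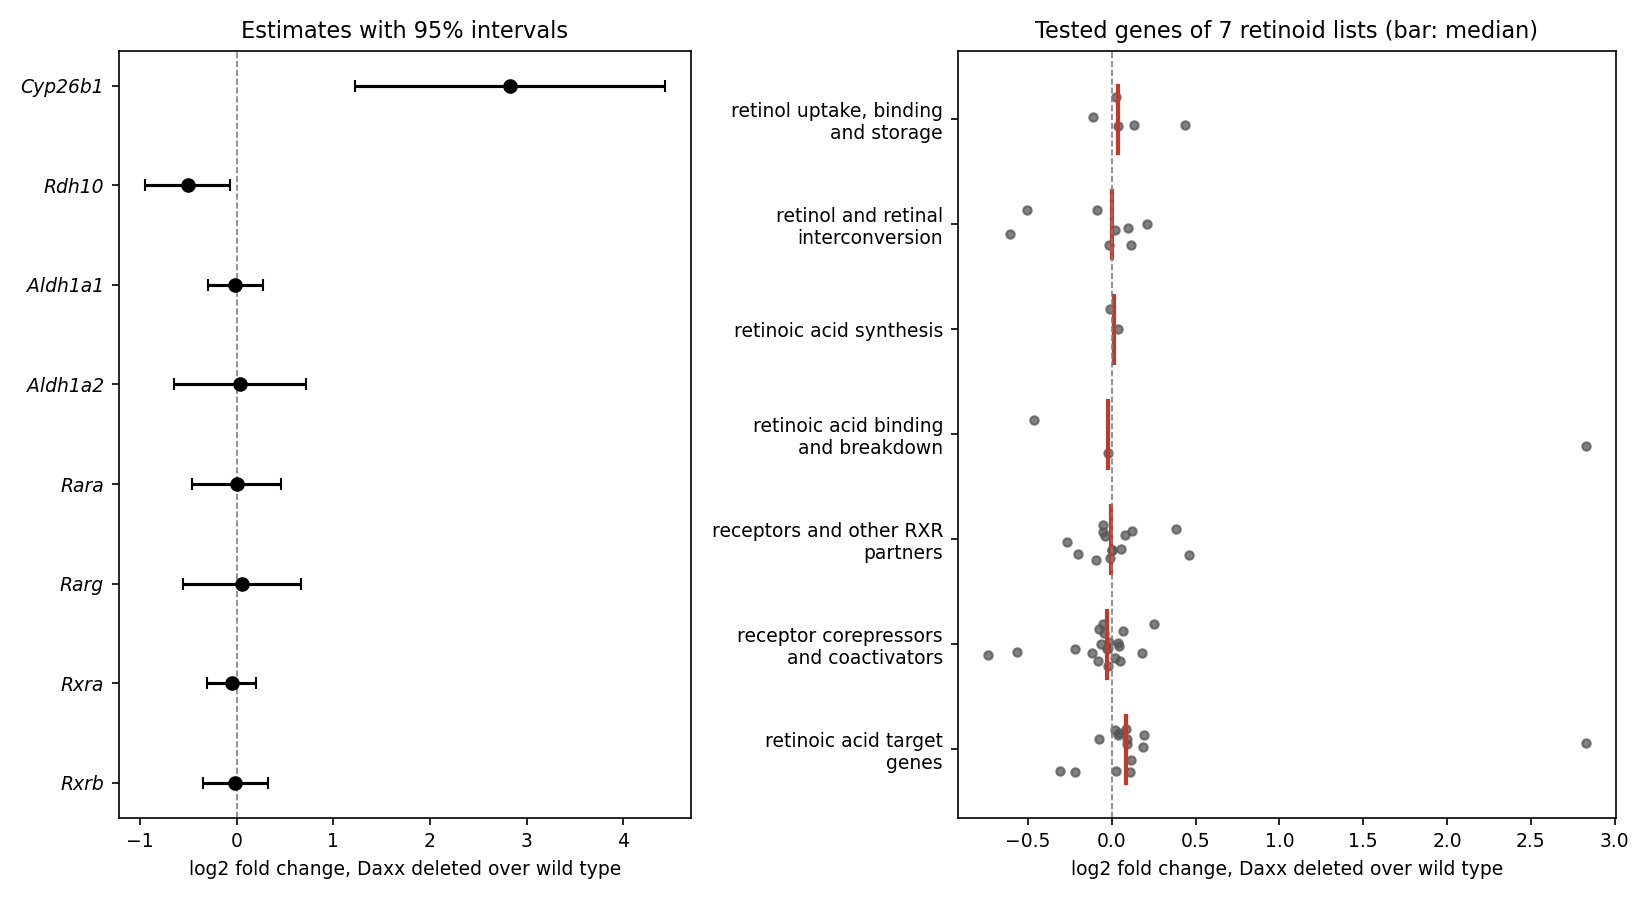
Left, log2 fold change of Daxx-deleted over wild type for the 8 listed genes with 95% intervals. Right, the same for tested genes of 7 retinoid lists, 1 point per gene and a bar at the median of each list. Cyp26b1 at 2.83 stands apart to the right in the 2 lists that hold it, and the list medians lie between -0.03 and 0.08.

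The rest of the retinoid pathway was read from 7 lists of 110 genes in all, of which 72 have a row and 64 were tested. None of the 64 passed in limma. By limma 4 had an unadjusted p under 0.05 (Cyp26b1, Daxx, Rdh10 and Nr1h3), by edgeR 5 and by DESeq2 2, with 0 called by either. Of the 64 genes 34 had a log2 fold change above 0 and 30 below, with a median of 0.011, while all tested genes had 5033 above and 5435 below and a median of -0.0074. Groups did not overlap for 1 gene with Daxx-deleted higher and for 2 with Daxx-deleted lower, Rdh10 and Daxx, beside 0.831% and 1.04% of all tested genes. Rdh10 and Daxx were put on the lists with their values known, so nothing is read from these counts. Among genes without a row, which were not analysed here, are Cyp26a1 and Cyp26c1, the other retinoic acid hydroxylases, the binding protein genes Crabp1 and Crabp2, the retinol receptor gene Stra6, the storage enzyme gene Lrat, Aldh1a3 and Rxrg.

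In the list of retinol uptake, binding and storage 5 of 14 genes were tested and none passed, with 4 above 0 and 1 below. Lipe, hormone-sensitive lipase, which can release retinol from its esters, had 46.5, 66.6, 60.4 and 36.7 normalized counts in Daxx-deleted libraries, against 36.1, 40.4, 40.9 and 33.6 in wild-type libraries. The upper 3 Daxx-deleted libraries were above every wild-type library, and the log2 fold change was 0.43 ± 0.21 (SE). Ttr, which carries retinol-binding protein in plasma, had 285.6 ± 52.4 in Daxx-deleted and 306.0 ± 26.6 in wild-type pancreas (here and below mean normalized count ± SD, n = 4 each). The esterifying enzyme gene Dgat1 had 50.8 ± 15.9 in Daxx-deleted and 45.0 ± 8.77 in wild-type pancreas, and the lipoprotein and carotenoid receptor gene Scarb1 had 190.1 ± 15.9 in Daxx-deleted and 186.4 ± 28.2 in wild-type pancreas. The retinol-binding protein gene Rbp4 was under the filter, at 2.10 to 10.4 in Daxx-deleted and 6.52 to 9.69 in wild-type libraries.

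In the list of retinol and retinal interconversion 8 of 18 genes were tested, 4 above 0 and 4 below, and none passed. Dhrs3, the reductase that turns retinal back to retinol, had 196.1, 209.9, 273.9 and 278.2 normalized counts in Daxx-deleted libraries, against 233.5, 220.4, 211.3 and 210.7 in wild-type libraries. Daxx-deleted replicates 3 and 4, the libraries high in Cyp26b1, were also the 2 highest in Dhrs3, and Daxx-deleted replicates 1 and 2 were the 2 lowest. The chi-square given above was also higher between these pairs of libraries than within them. It does not tell which genes differ, and how many other genes share the order of Dhrs3 was not tested. The log2 fold change of Dhrs3 between genotypes was 0.11 ± 0.14 (SE). Rdh14, a retinol dehydrogenase of the same family as Rdh10 and Dhrs3, had 10.3, 23.3, 18.7 and 18.9 in Daxx-deleted libraries, against 22.03, 35.2, 26.3 and 24.8 in wild-type libraries. Of the Daxx-deleted libraries 3 were below all wild-type libraries and replicate 2 was not, and the log2 fold change of Rdh14 was -0.61 ± 0.29 (SE). Rdh13 had 37.5 ± 14.1 in Daxx-deleted and 31.0 ± 5.37 in wild-type pancreas, and Rdh11, a retinal reductase, had 43.7 ± 2.87 in Daxx-deleted and 47.0 ± 7.75 in wild-type pancreas.

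**Figure D4:**
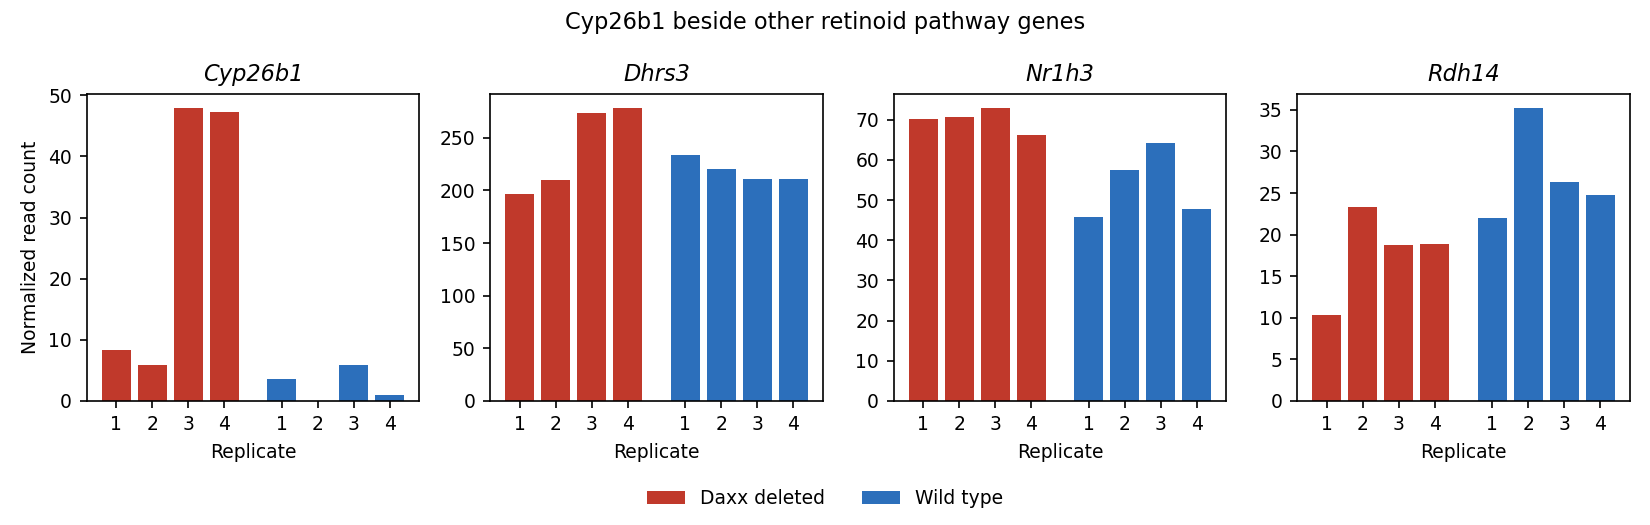
Normalized read counts of Cyp26b1, Dhrs3, Nr1h3 and Rdh14 in each library, with the 4 Daxx-deleted replicates left of the 4 wild-type replicates in each panel. Dhrs3 is highest, at 273.9 and 278.2, in the 2 Daxx-deleted libraries that are high in Cyp26b1, whereas Nr1h3 lies between 66.1 and 72.9 in all 4 Daxx-deleted libraries.

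Among genes of retinoic acid binding and breakdown 3 of 7 were tested and none passed, 1 above 0 (Cyp26b1) and 2 below. Por, the reductase that supplies electrons to cytochromes P450 such as Cyp26b1, had 77.4, 112.5, 121.8 and 75.6 normalized counts in Daxx-deleted libraries, against 85.5, 114.8, 288.2 and 104.5 in wild-type libraries. Wild-type replicate 3 stood far above the other 7 libraries in Por. Fabp5, which carries retinoic acid towards peroxisome proliferator receptors, had 40.7 ± 10.98 in Daxx-deleted and 40.6 ± 5.80 in wild-type pancreas.

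Of 21 receptor genes and partners of the retinoid X receptors 14 were tested, 7 above and 7 below 0, and none passed. Nr1h3, the liver X receptor alpha gene, had 70.2, 70.8, 72.9 and 66.1 normalized counts in Daxx-deleted libraries, against 45.8, 57.4, 64.3 and 47.8 in wild-type libraries. All Daxx-deleted values lay above all wild-type values, as for 0.831% of tested genes, and Nr1h3 had a log2 fold change of 0.39 ± 0.17 (SE) and a limma adjusted p of 0.9997. Nr4a1, an immediate early orphan receptor gene, had 28.5 ± 6.71 in Daxx-deleted and 20.5 ± 5.85 in wild-type pancreas. Nr4a2 had 21.0 ± 4.04 in Daxx-deleted and 25.9 ± 6.44 in wild-type pancreas, and the bile acid receptor gene Nr1h4 had 23.0 ± 6.78 in Daxx-deleted and 27.3 ± 11.4 in wild-type pancreas.

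All 20 genes of corepressors and coactivators were tested, 7 above and 13 below 0, and none passed. Daxx itself stands on this list, since the Daxx protein is known to bind nuclear receptors and repress transcription. The acetyltransferase gene Ep300 had 246.7 ± 20.1 in Daxx-deleted and 218.5 ± 25.9 in wild-type pancreas, and the coactivator gene Ncoa7 had 15.4 ± 8.47 in Daxx-deleted and 21.7 ± 4.84 in wild-type pancreas.

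The list of retinoic acid targets, 35 genes known to respond to retinoic acid in some cell type, had 15 tested members, 12 above 0 and 3 below, and none passed. Its median log2 fold change was 0.08, against -0.0074 over all tested genes. The median ranged from 0.015 to 0.097 when each library in turn was left out. Within this range it was 0.015 without Daxx-deleted replicate 1, 0.029 without Daxx-deleted replicate 3 and 0.016 without wild-type replicate 3. Beside Cyp26b1 and Dhrs3, the acinar and progenitor factor gene Gata4 had 340.9 ± 60.1 in Daxx-deleted and 297.3 ± 38.2 in wild-type pancreas. Nrip1, a corepressor gene induced by retinoic acid, had 121.4 ± 22.6 in Daxx-deleted and 140.4 ± 17.6 in wild-type pancreas. The antiproliferative gene Btg2 had 249.8, 256.6, 278.1 and 295.0 in Daxx-deleted libraries, against 269.6, 259.5, 587.2 and 300.1 in wild-type libraries, with wild-type replicate 3 high as in Por.

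The genes whose levels followed Cyp26b1 most closely over the 8 libraries were found by Pearson's r of log2(normalized count + 1), given as a description since they were the extremes of 10468 genes. The 5 highest were Slc19a1, the reduced folate carrier gene (r = 0.95, Spearman's rho 0.74), March2, a ubiquitin ligase gene (0.94 and 0.98), Lmnb2, a nuclear lamin gene (0.93 and 0.95), Aasdh (0.92 and 0.71) and Uqcrfs1, of respiratory complex III (0.90 and 0.95). Slc19a1 had 55.7, 58.3, 71.9 and 74.5 normalized counts in Daxx-deleted libraries, against 60.8, 45.6, 57.5 and 51.4 in wild-type libraries. Its 2 highest libraries were Daxx-deleted replicates 3 and 4, though the step was far smaller than in Cyp26b1. The 5 lowest were Washc2 (r = -0.96, rho -0.81), Zc3h10 (-0.96 and -1.0), Igfals (-0.95 and -0.93), Alms1 (-0.95 and -0.90) and Ndufv2 (-0.94 and -0.95). Igfals, of the circulating insulin-like growth factor complex, had 35.1, 49.98, 24.99 and 13.6 in Daxx-deleted libraries, against 66.1, 101.7, 50.6 and 125.7 in wild-type libraries. Among the other members r with Cyp26b1 was -0.87 for Rdh10 and between -0.10 and 0.33 for Aldh1a1, Aldh1a2, Rara, Rarg, Rxra and Rxrb. It was 0.69 for Dhrs3, with a rho of 0.31, which placed Dhrs3 at rank 274 from the top of the tested genes by r. These 8 points share the genotype difference and the few reads of Cyp26b1. March2 (chromosome 17, 33685692 to 33718670) lies close to Daxx (33909414 to 33915590). Alms1 (chromosome 6, 85587531 to 85702753) lies on the chromosome of Cyp26b1. The part of these positions in the correlations was not tested.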

How the data were processed

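The deposited values are a signal made by the authors from read counts, each divided by the size factor of its library, which was read off the values. STAR 2.6.0b, DESeq2 and GRCm38 are named per the submitters' processing notes. Not given in the sources used here are the read counter and the gene filter. Whole reads were recovered for 100% of values within a tolerance of 0.001, and no gene is listed with 5 reads or more in fewer than 4 libraries. Coordinates and exon lengths are from GENCODE M21 (GRCm38), which 11781 of 11789 gene IDs matched without version.

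Genes with a mean of at least 10 were tested on log2(value + 1) by limma 3.58.1 (R 4.3.3) with the trend option and genotype as the only term, two-sided, with Benjamini-Hochberg adjustment over 10468 genes. This scale understates the change of low genes. Alternatives were pseudocounts of 0.5 and 8, TMM, equal library totals, no filter, a minimum mean of 50, a Y-linked covariate, each library left out, and count tests on the recovered reads (DESeq2 1.42.0 and edgeR 4.0.16). limma was checked on simulated counts. Replicates are numbered in accession order. Pairs of libraries of 1 genotype gave chi-square values of 6.97 to 26.0 per degree of freedom, and none were merged.

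The members and lists were chosen with earlier results of these data known. Beside the members and Daxx, up to 4 tested genes per list are named, by smallest unadjusted p, and the 5 genes most and least correlated with Cyp26b1. Some genes that this rule names are not reported here. Exact permutation p-values of the members were computed and are not given, since the members were picked with these values in view.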

Additional observations from a re-analysis of the deposited data

Results flagged for a closer look

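In each genotype the 4 values of 40 genes (the listed members, Daxx, the named pathway genes and the genes most and least like Cyp26b1) were checked with Dixon's ratio, which asks whether a single library lies far from the other 3. It did in 5 of 80 groups, and about 4 are given by chance. Gata4 stood at 430.5 normalized counts in Daxx-deleted replicate 4, with 303.5 to 320.8 in the other Daxx-deleted libraries. Rxrb stood at 93.8 in wild-type replicate 4, below 122.6 to 126.9 in the other wild-type libraries. Wild-type replicate 3 was the library that stood apart in the other 3 genes. It had 288.2 of Por, with 85.5 to 114.8 in the other wild-type libraries, 587.2 of Btg2, with 259.5 to 300.1, and 29.2 of Nr4a1, with 16.8 to 18.3. Cyp26b1 was not among these, since its 4 Daxx-deleted values fall into 2 pairs.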

How the results depend on the processing

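No named gene was called under any alternative (523 values of 30 genes, 483 with the sign given above). Over all genes 1 gene, Bglap3, was called with equal library totals, with the Y-linked covariate, with that covariate and its product with genotype (chosen after seeing the data), and by DESeq2, and 0 to 1 when each library was left out (1 without Daxx-deleted replicate 2). Equal library totals moved the median log2 fold change of all genes from -0.0074 to 0.11 and that of the retinoid lists to 0.13, so changes under it are read relative to 0.11. Under it Rxra was at 0.069, Rxrb 0.11, Aldh1a1 0.11, Ttr 0.0072, Rdh11 0.031 and Fabp5 0.10, all above 0 where the values given above are below it, but none above the shifted median. The sign differed by edgeR for Aldh1a1 (0.0048), Aldh1a2 (-0.044) and Fabp5 (0.012), and by DESeq2 for Aldh1a1 (0.0010), Aldh1a2 (-0.047) and Fabp5 (0.0082). The cause was not tested. With each library left out, log2 fold changes of both signs were found for Rara (-0.12 to 0.13), Rarg (-0.092 to 0.28), Rxra (-0.13 to 0.018), Rxrb (-0.11 to 0.091), Aldh1a1 (-0.081 to 0.075), Aldh1a2 (-0.22 to 0.28), Ttr (-0.18 to 0.022), Scarb1 (-0.020 to 0.14), Rdh13 (-0.0055 to 0.42), Fabp5 (-0.17 to 0.11) and Nr1h4 (-0.40 to 0.042). The median of the retinoid lists ran from -0.022 to 0.045. Cyp26b1, Rdh10 and Daxx kept their sign under every alternative that tested them, with Cyp26b1 at 1.48 to 3.38. A minimum mean of 50 leaves out these 3 genes. No paired analysis was possible because the labels give no replicate numbers. Depth limits Cyp26b1 most, with 0 to 8 reads in 6 of the libraries.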

Other observations

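Pparg, the adipogenic partner of the retinoid X receptors, had a mean under 10 and was not tested. It was chosen after its values were seen. It had 12.4, 13.3, 12.5 and 11.5 normalized counts in Daxx-deleted libraries, against 7.93, 6.52, 2.92 and 3.54 in wild-type libraries, from 11 to 16 reads and 3 to 9 reads per library. The groups did not overlap, as for 0.831% of tested genes with Daxx-deleted higher. That share does not cover genes under the filter, such as Pparg, so nothing is read from it here. The fat markers Adipoq, Plin1, Fabp4, Cidec and Car3 summed to 209.6, 589.0, 143.7 and 69.3 in Daxx-deleted replicates 1 to 4, against 326.9, 185.2, 105.2 and 130.1 in wild-type replicates 1 to 4. Their part in the Pparg values was not tested.

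The nearest listed genes on either side of Cyp26b1 were also chosen after values were seen. Exoc6b, an exocyst gene 24579 bases from Cyp26b1 on chromosome 6, had 107.4, 99.96, 95.8 and 81.9 normalized counts in Daxx-deleted libraries, against 125.1, 105.6, 95.4 and 96.5 in wild-type libraries. Dysf, the dysferlin gene 360354 bases to the other side, had 55.7, 65.8, 67.7 and 73.5 in Daxx-deleted libraries, against 37.9, 60.0, 42.8 and 46.9 in wild-type libraries, a log2 fold change of 0.49 ± 0.18 (SE) with a limma adjusted p of 0.9997.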
